A study of Mus musculus with 12 samples.

Results

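The genes that make cholesterol and fatty acids, with the proteins that regulate them and move sterol in and out of cells, were followed in primary mouse lung endothelial cells. They were 36 genes of 23422 in the table, taken by symbol from a list of cholesterol synthesis, fatty acid synthesis, sterol regulation and sterol transport genes, with the FPKM of all transcripts of a gene added up. FPKM is a count of fragments scaled by transcript length and by the mapped fragments of the library, a level per length. Of the 36 members, 8 are enzymes that use molecular oxygen (Sqle, Cyp51, Msmo1, Sc5d, Scd1, Scd2, Fads1 and Fads2) and 28 are not. A mean of at least 1 FPKM was needed for a test, and 35 members had it. Scd1 lay just inside that limit with a mean of 1.02 FPKM, and Dhcr7, which makes the last reduction to cholesterol, lay just outside with 0.913 FPKM and was not tested.

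The study asked which pathways act downstream of the mixed lineage kinases MLK2 and MLK3, which are encoded by Map3k10 and Map3k11. Lung endothelial cells came from C57BL/6J mice (wild type) or from MLK2-/-MLK3-/- mice (called double knockout here). They were kept as monolayers at 21% O2 (normoxia) or moved to 1% O2 (hypoxia) for 90 min, and each of the 4 combinations has 3 libraries. All groups grew in the same medium with fetal bovine serum, which itself carries cholesterol and fatty acids. The sources used here do not say how many animals or cultures stand behind a group, nor the strain background, age or sex of the knockout mice, so each p measures only the spread between these libraries, which may be technical.

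The libraries held an estimated 21150000 to 25900000 fragments, and 11281 to 11410 genes stood at 1 FPKM or more in each. All 9 endothelial markers passed 1 FPKM and summed to between 4163 and 4407 FPKM in every library. Egfl7 and Emcn lead that sum, which can hide changes of single markers. Map3k10 stood at 16.6 to 19.2 FPKM in wild type and 0.131 to 1.34 FPKM in double knockout libraries, and Map3k11 at 31.9 to 36.4 and 10.9 to 12.2 FPKM. The call rule was limma's adjusted p under 0.05 on log2(FPKM + 1), a scale that understates changes of low genes.

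Cholesterol is built from acetyl-CoA through the mevalonate arm to farnesyl diphosphate, joined into squalene, closed into lanosterol and then trimmed. The oxygen-consuming steps are the epoxidation of squalene (Sqle), the removal of the methyl groups of lanosterol (Cyp51, Msmo1) and the desaturation by Sc5d, and in fatty acids the desaturations by Scd1, Scd2, Fads1 and Fads2. The transcription factors encoded by Srebf1 and Srebf2 (SREBPs) drive most of these genes. When sterols are plentiful, INSIG proteins hold SREBP and its escort SCAP in the endoplasmic reticulum, and when sterols fall SCAP carries SREBP to the Golgi, where it is cut and freed. Hypoxia is known in other cell types to induce INSIG genes through the hypoxia-inducible factors. Their binding sites often have the core letters ACGTG, and also occur with GCGTG, which was not searched here. SREBP acts at sterol regulatory elements beside sites of the factor NF-Y (ATTGG on either strand) and of Sp1 (GGGCGG).

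RefSeq promoter windows on GRCm38.p6, from 250 bases before a start site to 50 after, were found for 28 of the 36 members. The letters ATTGG, searched on both strands as all motifs were, stood in the windows of 21 of these 28 members (75.0%) and in 41.1% of all 27025 genes with a window. GGGCGG stood in 23 of 28 (82.1%) and in 38.2% of all genes. ACGTG stood in 9 of 28 (32.1%) and in 21.8% of all genes, and CACGTG, the E-box, which contains ACGTG on both strands, in 6 of 28 (21.4%) and 8.09%. The sterol regulatory element itself, searched as a fixed pattern, stood in 0 of 28 members and in 0.27% of all genes. The element of the liver X receptor, searched in the same way, stood in 0 of 28 and in 0.015%. Other forms of these elements were not searched. A match says only that the letters are there. The parts of 4 windows that lie before the gene in both RefSeq and GENCODE M21 are shown because Tmem97, Insig1 and Sc5d were the 3 members called higher in hypoxia in the double knockout, and Ebp was called lower there. ATTGG and ACGTG, on either strand, are in capitals, and in Insig1 and Sc5d the capitals CACGTG are both strands of ACGTG.
Tmem97 (chr11:78550778-78550985, minus strand): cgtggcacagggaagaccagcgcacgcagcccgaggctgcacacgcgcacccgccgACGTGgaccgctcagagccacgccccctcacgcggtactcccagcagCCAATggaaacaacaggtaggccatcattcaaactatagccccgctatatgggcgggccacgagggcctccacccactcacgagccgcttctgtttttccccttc
Insig1 (chr5:28071162-28071362, plus strand): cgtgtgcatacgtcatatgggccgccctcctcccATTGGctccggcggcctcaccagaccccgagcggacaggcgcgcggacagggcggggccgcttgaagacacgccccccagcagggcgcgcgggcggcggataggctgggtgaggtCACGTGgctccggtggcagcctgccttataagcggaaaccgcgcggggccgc
Sc5d (chr9:42264301-42264550, minus strand): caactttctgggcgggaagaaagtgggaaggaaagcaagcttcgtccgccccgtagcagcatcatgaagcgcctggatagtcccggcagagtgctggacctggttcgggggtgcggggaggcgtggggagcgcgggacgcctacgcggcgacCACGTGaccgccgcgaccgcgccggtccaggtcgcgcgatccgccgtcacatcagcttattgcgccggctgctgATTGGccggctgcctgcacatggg
Ebp (chrX:8193513-8193762, minus strand): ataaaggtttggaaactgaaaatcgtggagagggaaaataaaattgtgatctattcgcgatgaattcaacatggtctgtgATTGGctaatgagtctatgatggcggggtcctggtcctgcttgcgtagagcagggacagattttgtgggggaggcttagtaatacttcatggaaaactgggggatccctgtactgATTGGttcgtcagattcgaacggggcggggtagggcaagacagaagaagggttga

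Levels differed widely among the members. The highest means over the 12 libraries were those of Acly (65.7 FPKM), Insig1 (60.1 FPKM), Abca1 (52.5 FPKM), Fdps (45.0 FPKM) and Insig2 (41.7 FPKM). Acly supplies cytosolic acetyl-CoA from citrate and Abca1 exports cholesterol. The lowest were Dhcr7 (0.913 FPKM), Scd1 (1.02 FPKM), Lss (2.09 FPKM), Hsd17b7 (2.20 FPKM) and Tm7sf2 (2.87 FPKM), of which the estimated fragments per library were 22 to 59 for Dhcr7, 70 to 146 for Scd1 and 50 to 85 for Tm7sf2. In the heat map of the members Tm7sf2 and Lss vary widely between libraries of one group. Of the desaturases of saturated fatty acids, Scd2 stood at 23.7 FPKM and Scd1 at 1.02 FPKM. The Scd1 and Scd2 transcripts share 3.03% of the 50-base stretches of Scd1, and reads from those stretches could be counted for either gene.

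**Figure D1:**
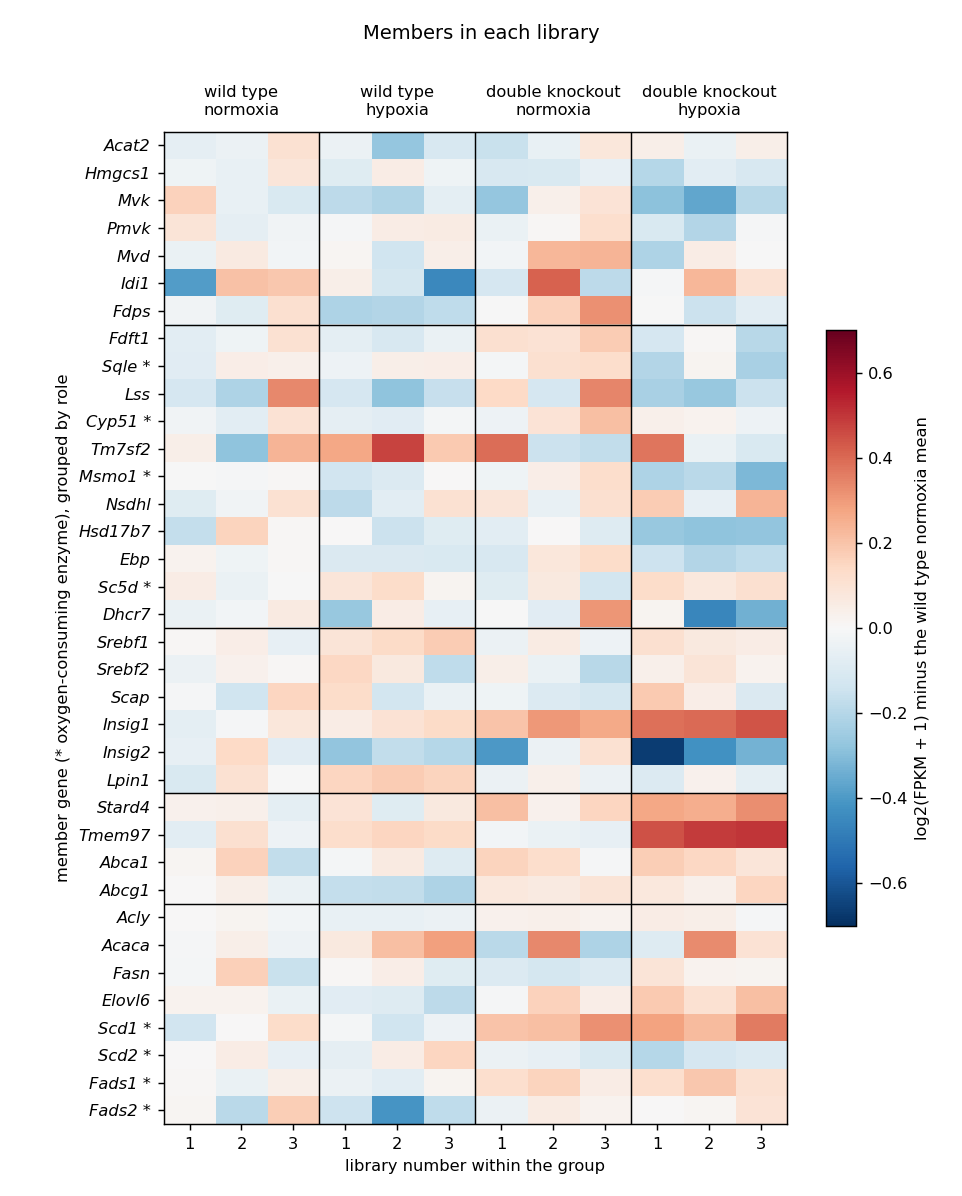
Rows are the 36 members grouped by role (black lines; asterisk, oxygen-consuming enzyme), columns the 12 libraries, and colour is log2(FPKM + 1) minus the mean of the 3 wild type normoxia libraries. Insig1 is above the wild type normoxia mean in all 6 double knockout libraries, and Tmem97 is highest in the 3 double knockout hypoxia libraries.

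Hypoxia in wild type cells moved few of these genes past the threshold. Abcg1, which exports cholesterol to lipoproteins, was the single member called. Its wild type libraries read 22.4, 23.0 and 21.6 FPKM under normoxia and 19.8, 19.7 and 19.1 FPKM under hypoxia, with all 3 hypoxia libraries below all 3 normoxia libraries. Its log2 fold change was -0.19 (SE 0.04; adjusted p = 0.00812 by limma), and the call held in 17 of 17 alternatives. That is 1 of 35 tested members, against 20.8% of all tested genes called in this comparison (10.5% higher and 10.4% lower). The median log2 fold change was -0.03 over the members and 0.00 over all genes tested. At an unadjusted p under 0.05, 6 members passed, 3 of them higher. Without wild type normoxia library 2, 4 members were called: Lpin1 and Tmem97 higher, Abcg1 and Fads2 lower.

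None of the 8 oxygen-consuming enzymes was called in wild type hypoxia by limma, and 1 of them, Fads2, passed an unadjusted p under 0.05. Their median log2 fold change was -0.04, against -0.03 in the other 27 tested members. The 95% confidence intervals of the log2 fold change ran from -0.14 to 0.17 for Sqle, from -0.20 to 0.10 for Cyp51, from -0.19 to 0.04 for Msmo1 and from -0.04 to 0.19 for Sc5d. Among the desaturases the interval was -0.26 to 0.13 for Scd1, -0.07 to 0.16 for Scd2 and -0.13 to 0.06 for Fads1. For Fads2 it was -0.44 to -0.05 (adjusted p = 0.0734 by limma).

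In double knockout cells hypoxia was followed by 9 calls among the 35 tested members, against 39.3% of all tested genes (19.6% in each direction), so the share of members called was below that background here too. Tmem97, Insig1 and Sc5d rose, and Msmo1, Ebp, Fdft1, Fdps, Sqle and Insig2 fell. The median log2 fold change was 0.02 over the members and 0.01 over all genes tested. Among the oxygen-consuming enzymes 1 of 8 rose and 2 fell, and among the other 27 tested members 2 rose and 4 fell. The medians were -0.02 and 0.04. The calls of Tmem97, Msmo1, Ebp and Fdft1 held in 17 of 17 alternatives, and those of the other 5 did not. With double knockout normoxia library 3 or double knockout hypoxia library 3 left out, 5 members were called.

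**Figure D2:**
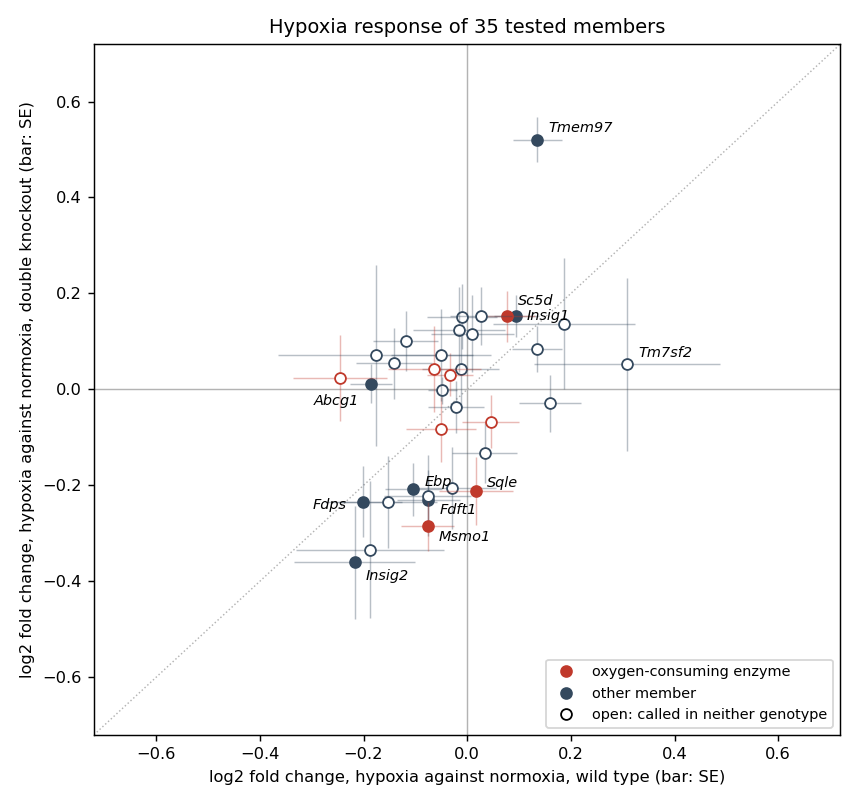
Each point is 1 of 35 tested members, placed by its log2 fold change of hypoxia against normoxia in wild type (horizontal) and double knockout (vertical), with bars of 1 SE and filled points where the member was called in either genotype. Tmem97 lies farthest above the diagonal, at 0.14 and 0.52, and Msmo1 lies below it, at -0.08 and -0.29.

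Tmem97, the sigma-2 receptor, is a sterol-responsive membrane protein that binds the lysosomal cholesterol transporter NPC1. It stood at 17.7, 20.3 and 18.2 FPKM in normoxic wild type cells, 20.5, 20.9 and 20.6 FPKM in wild type hypoxia, and 18.4, 18.1 and 18.0 FPKM in double knockout normoxia. In double knockout hypoxia it stood at 25.9, 26.7 and 26.9 FPKM, above all 9 other libraries. The hypoxia log2 fold change was 0.52 (SE 0.05; adjusted p = 9.73e-06 by limma) in the double knockout, a ratio of means of 1.46, and 0.14 (SE 0.05; adjusted p = 0.0617 by limma) in wild type, where all 3 hypoxia libraries also lay above the normoxia ones. The difference between the responses was 0.39 (SE 0.07; adjusted p = 0.0492 by limma), the only call among the members, against 0.193% of all tested genes called (0.0703% higher and 0.123% lower). This last call was close to the threshold: with any 1 of the 12 libraries left out the difference was 0.33 to 0.42 and its adjusted p 0.0616 to 0.133. The call was also lost with no filter, quantile normalization, a replicate block, no variance trend and each transcript on its own. Tmem97 (ENSMUSG00000037278) lies on chromosome 11 from 78541817 to 78550777 (GRCm38, minus strand) and was counted as a single transcript.

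Insig1, the SREBP-holding protein that is itself a strong SREBP target, differed between genotypes at both oxygen levels. Its values were 49.6, 51.9 and 55.1 FPKM in wild type normoxia and 54.0, 56.1 and 57.3 FPKM in wild type hypoxia. They were 60.1, 64.6 and 63.0 FPKM in double knockout normoxia and 68.6, 69.1 and 71.2 FPKM in double knockout hypoxia. Every double knockout library lay above every wild type library. The genotype log2 fold change was 0.26 (SE 0.04; adjusted p = 0.00337 by limma) in normoxia and 0.31 (SE 0.04; adjusted p = 0.000554 by limma) in hypoxia, and both calls held in 17 of 17 alternatives. Insig1 was the single member of 35 called between genotypes in normoxia, against 8.16% of all tested genes (3.84% higher and 4.32% lower). Hypoxia raised it by 0.15 in the double knockout (SE 0.04; adjusted p = 0.015 by limma) and the value in wild type was 0.09 (adjusted p = 0.148 by limma), with no call on the difference between those responses (0.06, adjusted p = 0.688 by limma). The rise in the double knockout missed the threshold without double knockout normoxia library 1 or double knockout hypoxia library 3 (adjusted p = 0.0558 and 0.0555) and with quantile normalization (adjusted p = 0.0902).

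Insig2, the other SREBP-holding protein, had 11 transcripts in the table. Its summed values were 45.6, 52.4 and 44.8 FPKM in normoxic wild type cells, 39.1, 42.0 and 41.2 FPKM in wild type hypoxia, 35.7, 46.1 and 51.2 FPKM in double knockout normoxia and 29.6, 35.2 and 37.5 FPKM in double knockout hypoxia. The sum fell in double knockout hypoxia by 0.36 on the log2 scale (SE 0.12; adjusted p = 0.029 by limma), with overlapping libraries. Between 47.8% and 67.7% of it came from transcripts under 1000 bases, as the stacked bars of Insig2 transcripts show. The long transcript ENSMUST00000003818 stood at 13.6, 13.9 and 14.9 FPKM in normoxic wild type cells, 15.7, 12.8 and 13.9 FPKM in wild type hypoxia, 13.2, 13.3 and 11.3 FPKM in double knockout normoxia and 12.9, 12.0 and 11.0 FPKM in double knockout hypoxia. Its hypoxia log2 fold change in the double knockout was -0.07 (adjusted p = 0.618 by limma). With transcripts under 1000 bases left out of the sum the value was -0.16 (adjusted p = 0.06 by limma), so the call on Insig2 rested on the short transcripts, and it was also lost without double knockout normoxia library 2 or 3 or hypoxia library 1 (adjusted p = 0.0872 to 0.12).

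**Figure D3:**
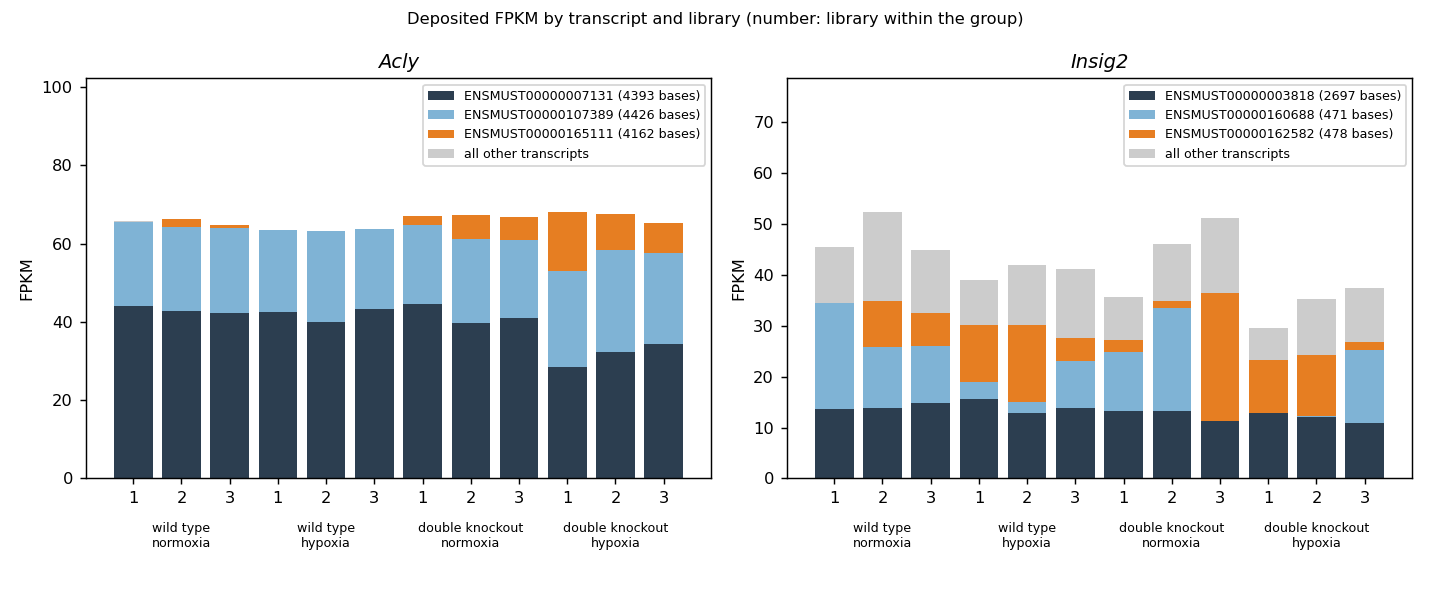
Bars are the 12 libraries and stacked colours the deposited FPKM of the transcripts of Acly and Insig2, with their lengths in the key. The Acly total stays between 63.2 and 68.1 FPKM while the share of ENSMUST00000165111 is largest in double knockout hypoxia, and the 2 short Insig2 transcripts trade places between libraries of the same group.

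Among the remaining regulators calls were few. Srebf1 stood at 10.2, 10.4 and 9.66 FPKM in normoxic wild type cells, 10.8, 11.2 and 11.6 FPKM in wild type hypoxia, 9.75, 10.5 and 9.80 FPKM in double knockout normoxia and 11.0, 10.6 and 10.5 FPKM in double knockout hypoxia. It was called in neither genotype alone (adjusted p = 0.0706 and 0.193 by limma) and rose on average over both by 0.11 (SE 0.03; adjusted p = 0.0215 by limma). That call was lost without wild type normoxia library 3 or double knockout hypoxia library 1 (adjusted p = 0.0532 and 0.0516) and on its main transcript alone (adjusted p = 0.131). Srebf2, the main driver of cholesterol synthesis genes, had group means of 9.93, 10.1, 9.46 and 10.3 FPKM in the order wild type normoxia, wild type hypoxia, double knockout normoxia and double knockout hypoxia, and Scap 19.1, 18.8, 17.9 and 19.7 FPKM, with no call in any comparison. Lpin1, a phosphatidate phosphatase that also restrains SREBP, stood at 8.40, 8.58 and 8.45 FPKM in wild type hypoxia and at 6.95, 7.65 and 7.11 FPKM in double knockout hypoxia. In normoxia its libraries read 6.89, 8.15 and 7.46 FPKM for wild type and 7.26, 7.69 and 7.26 FPKM for double knockout cells. It was lower in the double knockout in hypoxia by a log2 fold change of -0.20 (SE 0.06; adjusted p = 0.038 by limma), a call lost in 5 of 6 omissions of a library (adjusted p = 0.0767 to 0.13), all but that of double knockout hypoxia library 2.

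In the mevalonate arm no member was called between genotypes or by hypoxia in wild type. Fdps, which makes farnesyl diphosphate, stood at 44.9, 43.0 and 49.4 FPKM in normoxic wild type cells, 39.2, 39.5 and 40.2 FPKM in wild type hypoxia, 45.5, 51.3 and 57.2 FPKM in double knockout normoxia and 45.6, 41.1 and 43.4 FPKM in double knockout hypoxia. It fell in double knockout hypoxia by 0.23 on the log2 scale (SE 0.07; adjusted p = 0.025 by limma) with overlapping libraries, and the wild type value was -0.20 (adjusted p = 0.0751 by limma) with all 3 hypoxia libraries below. Averaged over genotypes it fell by 0.22 (SE 0.05; adjusted p = 0.00508 by limma), a call that held in 22 of 22 alternatives, while the call in the double knockout alone was lost without double knockout normoxia library 2 or 3 or hypoxia library 2 or 3 (adjusted p = 0.0569 to 0.0972). Mvk, mevalonate kinase, stood at 17.6, 15.0 and 14.5 FPKM in normoxic wild type cells, 13.7, 13.4 and 14.9 FPKM in wild type hypoxia, 12.8, 16.0 and 16.8 FPKM in double knockout normoxia and 12.6, 11.9 and 13.6 FPKM in double knockout hypoxia. Its average fall of 0.19 (adjusted p = 0.0346 by limma) was lost in 7 of 12 omissions of a library (adjusted p = 0.0616 to 0.0827), among them wild type normoxia library 1 and double knockout normoxia libraries 2 and 3.

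The other members of the mevalonate arm were not called in any comparison. Acat2, which joins the first acetyl-CoA units, stood at 14.3, 14.5 and 16.1 FPKM in normoxic wild type cells, 14.5, 12.2 and 13.8 FPKM in wild type hypoxia, 13.3, 14.4 and 15.8 FPKM in double knockout normoxia and 15.4, 14.5 and 15.4 FPKM in double knockout hypoxia. These libraries overlapped in every pair of groups compared. Hmgcs1, the HMG-CoA synthase, had group means between 12.0 and 13.2 FPKM, Pmvk between 13.0 and 14.4 FPKM and Mvd between 11.0 and 12.8 FPKM. Idi1, the isopentenyl diphosphate isomerase, ranged from 7.45 to 14.4 FPKM over single libraries, and its interval in wild type hypoxia ran from -0.59 to 0.24.

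From squalene to cholesterol, 4 of 10 tested members fell in double knockout hypoxia and 1 rose, against 19.6% of all tested genes in each direction. Their median log2 fold change was -0.21. Msmo1, the oxygen-consuming C4-methylsterol oxidase, stood at 27.5, 27.3 and 27.7 FPKM in normoxic wild type cells, 25.0, 25.7 and 27.5 FPKM in wild type hypoxia, 26.9, 28.4 and 30.0 FPKM in double knockout normoxia and 23.6, 24.0 and 21.9 FPKM in double knockout hypoxia. The 3 double knockout hypoxia libraries lay below the other 9. It fell by 0.29 on the log2 scale (SE 0.05; adjusted p = 0.000991 by limma), from a mean of 28.4 to 23.2 FPKM, while the wild type value was -0.08 (adjusted p = 0.322 by limma). The difference between those responses was -0.21 (adjusted p = 0.186 by limma). In hypoxia Msmo1 was lower in the double knockout by a log2 fold change of -0.16 (adjusted p = 0.0482 by limma), a call lost in 5 of 6 omissions of a library (adjusted p = 0.0555 to 0.167), all but that of wild type hypoxia library 1.

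Ebp, the sterol isomerase, and Fdft1, the squalene synthase, use no oxygen and also fell. Ebp stood at 22.2, 21.3 and 21.9 FPKM in normoxic wild type cells, 20.3, 20.3 and 20.2 FPKM in wild type hypoxia, 20.1, 23.1 and 24.0 FPKM in double knockout normoxia and 19.6, 18.8 and 19.2 FPKM in double knockout hypoxia. The hypoxia libraries lay below the normoxia libraries in both genotypes, with a call in the double knockout (log2 fold change -0.21, SE 0.06, adjusted p = 0.0104 by limma) and none in wild type (-0.10, adjusted p = 0.209 by limma). Fdft1 stood at 12.6, 13.0 and 14.5 FPKM in normoxic wild type cells, 12.7, 12.3 and 12.9 FPKM in wild type hypoxia, 14.5, 14.4 and 15.2 FPKM in double knockout normoxia and 12.2, 13.5 and 11.6 FPKM in double knockout hypoxia. It fell in the double knockout by 0.23 (SE 0.06; adjusted p = 0.011 by limma), without overlap, and the wild type value was -0.07 (adjusted p = 0.423 by limma). Neither Ebp nor Fdft1 was called for the difference between the hypoxia responses.

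Sqle, the oxygen-consuming squalene epoxidase, stood at 8.13, 8.96 and 8.90 FPKM in normoxic wild type cells, 8.41, 8.94 and 8.96 FPKM in wild type hypoxia, 8.57, 9.44 and 9.50 FPKM in double knockout normoxia and 7.37, 8.79 and 7.25 FPKM in double knockout hypoxia. It fell in the double knockout by 0.21 (SE 0.07; adjusted p = 0.0337 by limma) with overlapping libraries, a call lost without double knockout normoxia library 2 or 3 or hypoxia library 1 or 3 (adjusted p = 0.098 to 0.122). Sc5d, the oxygen-consuming lathosterol oxidase, moved the other way. It stood at 22.5, 21.0 and 21.7 FPKM in normoxic wild type cells, 23.1, 23.8 and 22.0 FPKM in wild type hypoxia, 20.4, 22.9 and 19.8 FPKM in double knockout normoxia and 23.8, 22.9 and 23.6 FPKM in double knockout hypoxia. Its rise in the double knockout was 0.15 (SE 0.05; adjusted p = 0.0395 by limma) and was lost in 5 of 6 omissions of a library (adjusted p = 0.0559 to 0.143), all but that of double knockout normoxia library 2.

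Cyp51, the oxygen-consuming lanosterol demethylase, stood at 7.53, 7.24 and 8.29 FPKM in normoxic wild type cells, 7.31, 7.22 and 7.60 FPKM in wild type hypoxia, 7.47, 8.26 and 9.05 FPKM in double knockout normoxia and 7.88, 7.82 and 7.47 FPKM in double knockout hypoxia. The groups overlapped and no comparison called it. Lss, the lanosterol synthase, and Hsd17b7, a 3-ketosteroid reductase, lay lower in all 3 double knockout hypoxia libraries than in double knockout normoxia, with means of 2.52 and 1.77 FPKM for Lss and 2.30 and 1.83 FPKM for Hsd17b7, but did not pass the threshold (adjusted p = 0.0832 and 0.0555 by limma). Nsdhl had group means of 4.31 to 4.97 FPKM and Tm7sf2 of 2.60 to 3.42 FPKM, with no call. Dhcr7 had group means of 0.989, 0.873, 1.11 and 0.680 FPKM in the order wild type normoxia, wild type hypoxia, double knockout normoxia and double knockout hypoxia.

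**Figure D4:**
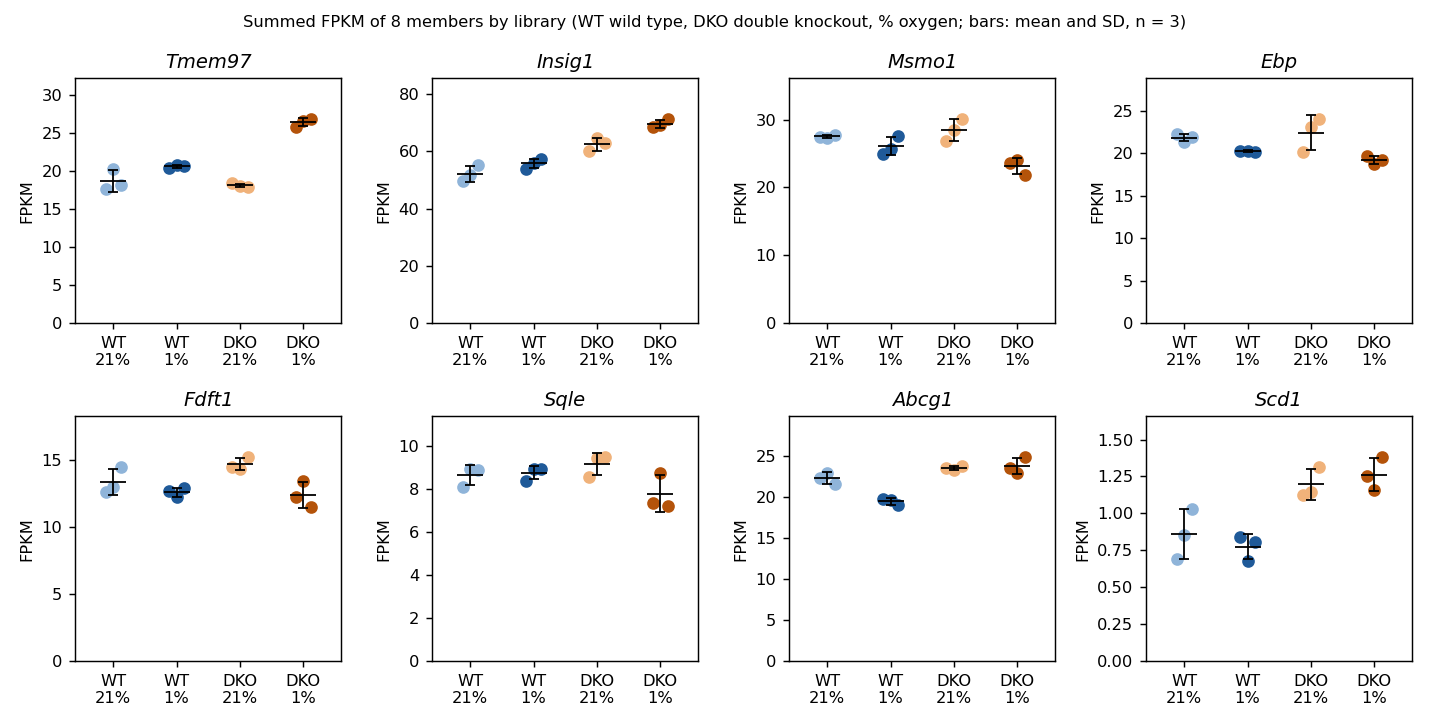
Points are summed FPKM of 8 members in each of the 12 libraries, by genotype and percent oxygen, with the mean and SD of 3 libraries and axes from 0. The double knockout hypoxia libraries of Tmem97 sit at 25.9 to 26.9 FPKM above all others, and those of Msmo1 at 21.9 to 24.0 FPKM below all others.

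Of the sterol transport genes, 3 of 4 were higher in the double knockout in hypoxia, against 7.68% of all tested genes. Of these 3, Stard4 was not called once transcripts under 1000 bases were left out. Over all members this comparison gave 10 calls among 35, 7 of them higher and 3 lower, against 16.1% of all tested genes called (7.68% higher and 8.42% lower). With quantile normalization or equal library medians the split was 8 higher and 1 lower. With no filter or with only the libraries compared no member was called lower. The median log2 fold change was 0.04 over the members and -0.00 over all genes tested. The higher calls include Scd1, which passed the limit of 1 FPKM only through the double knockout groups. Leaving out wild type hypoxia library 2 gave 4 calls, double knockout hypoxia library 1 gave 6 and double knockout hypoxia library 3 gave 5. The calls of Insig1, Tmem97, Abcg1 and Elovl6 held in all these omissions. Because the libraries are bulk cultures, fewer cells of a kind and less RNA per cell cannot be told apart in any of these differences.

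Among endothelial markers Cldn5 (-0.55) was called lower and Pecam1 (0.16) and Erg (0.14) higher in double knockout than in wild type hypoxia. In normoxia Tek (0.15) was called higher, and the other endothelial markers were not called between genotypes. With hypoxia Kdr fell (-0.21 in wild type, -0.24 in double knockout) and Erg rose (0.11 and 0.28). In the double knockout Cldn5 also fell (-0.58) and Pecam1 (0.13) and Cdh5 (0.20) rose. Markers of other cells differed between the genotypes as well. The 6 macrophage markers summed to 20.4 to 29.4 FPKM in wild type and 61.7 to 75.1 FPKM in double knockout libraries, with Lyz2 and Marco called higher in the double knockout at both oxygen levels and Adgre1, Csf1r and Ptprc under 1 FPKM on average. Lyz2 made up most of that sum, with group means of 21.4 and 24.5 FPKM in wild type and 62.1 and 59.6 FPKM in the double knockout. Cd68 was not called (log2 fold change -0.12 in normoxia and 0.22 in hypoxia, adjusted p = 0.614 and 0.225 by limma). The 5 fibroblast markers summed to 1.57 to 2.33 and 3.72 to 4.23 FPKM, of which Dcn alone passed 1 FPKM. The 4 lymphatic endothelial markers, all above 1 FPKM, summed to 482 to 593 FPKM in wild type and 372 to 445 FPKM in the double knockout. Lyve1 was called lower at both oxygen levels (-0.40 and -0.56) and Prox1 in hypoxia (-0.34), while Pdpn was called higher in normoxia (0.24) and Flt4 was not called. None of the 5 mural, 5 epithelial and 4 adipocyte markers reached 1 FPKM, and the epithelial and adipocyte markers were all under 0.1 FPKM. Whether these cells had a part in the differences between genotypes was not tested.

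Tmem97 was higher in the double knockout in hypoxia by 0.34 (SE 0.05; adjusted p = 0.000541 by limma), with 17 of 17 alternatives keeping the call, and the value in normoxia was -0.04 (adjusted p = 0.664 by limma). Abcg1 stood at 23.6, 23.3 and 23.9 FPKM in double knockout normoxia and 23.6, 23.0 and 24.9 FPKM in double knockout hypoxia, so that all 3 double knockout hypoxia libraries lay above the wild type hypoxia libraries given before. Its genotype log2 fold change in hypoxia was 0.27 (SE 0.04; adjusted p = 0.00085 by limma), and in normoxia 0.08 (adjusted p = 0.307 by limma). Stard4, a soluble sterol carrier, stood at 18.0, 18.1 and 16.8 FPKM in normoxic wild type cells, 18.9, 16.5 and 18.5 FPKM in wild type hypoxia, 20.5, 18.0 and 19.7 FPKM in double knockout normoxia and 21.4, 21.2 and 22.3 FPKM in double knockout hypoxia. Its difference in hypoxia was 0.26 (SE 0.06; adjusted p = 0.0136 by limma), without overlap. The 5097-base transcript of Stard4 alone gave 0.06 (adjusted p = 0.777), and the sum without transcripts under 1000 bases also 0.06 (adjusted p = 0.65), so this call too rested on short transcripts. It was also lost without wild type hypoxia library 2 or double knockout hypoxia library 3 (adjusted p = 0.0554 and 0.0519). Abca1 stood at 51.0, 56.5 and 44.6 FPKM in normoxic wild type cells, 50.0, 52.7 and 47.4 FPKM in wild type hypoxia, 56.3, 54.9 and 50.2 FPKM in double knockout normoxia and 57.0, 55.8 and 53.5 FPKM in double knockout hypoxia, and it was not called (genotype in hypoxia 0.15, adjusted p = 0.22 by limma).

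Fatty acid synthesis and desaturation genes showed no call to hypoxia in either genotype by limma (0 of 8, with 1 of 8 at an unadjusted p under 0.05 in each), against 20.8% of all tested genes in wild type and 39.3% in double knockout. Between genotypes in hypoxia 4 of 8 were called, against 16.1% of all tested genes. These include Scd1, which passed the limit of 1 FPKM only through the double knockout groups. Elovl6, which elongates palmitate, stood at 4.22, 4.22 and 3.99 FPKM in normoxic wild type cells, 3.87, 3.82 and 3.52 FPKM in wild type hypoxia, 4.11, 4.75 and 4.31 FPKM in double knockout normoxia and 4.84, 4.54 and 4.95 FPKM in double knockout hypoxia. It was higher in double knockout hypoxia than in wild type hypoxia by 0.29 (SE 0.06; adjusted p = 0.00996 by limma), without overlap and in 16 of 16 alternatives.

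The 4 oxygen-consuming desaturases did not share a direction. Scd1 stood at 0.689, 0.857 and 1.03 FPKM in normoxic wild type cells, 0.838, 0.680 and 0.807 FPKM in wild type hypoxia, 1.13, 1.15 and 1.32 FPKM in double knockout normoxia and 1.25, 1.16 and 1.38 FPKM in double knockout hypoxia. All 6 double knockout libraries were above all 6 wild type libraries, and it passed the limit of a mean of 1 FPKM only through the group where it was high. In hypoxia the ratio of means was 1.63 and the log2 fold change on the log2(FPKM + 1) scale 0.35 (SE 0.09). Averaged over oxygen levels it was 0.30 (SE 0.06). Because of how Scd1 passed the limit, these values are given as a description, although it is among the counted calls. The call in hypoxia was lost without wild type hypoxia library 2 or double knockout hypoxia library 1 or 3.

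Scd2, the far more abundant desaturase, went the other way. It stood at 24.4, 25.3 and 23.4 FPKM in normoxic wild type cells, 23.3, 25.2 and 27.1 FPKM in wild type hypoxia, 23.6, 23.3 and 22.5 FPKM in double knockout normoxia and 21.1, 22.4 and 22.7 FPKM in double knockout hypoxia. Its log2 fold change between genotypes in hypoxia was -0.18 (SE 0.05; adjusted p = 0.0413 by limma). The call was lost in 5 of 6 omissions of a library (adjusted p = 0.0618 to 0.148), all but that of wild type hypoxia library 1. It was also lost with quantile normalization or equal library medians (adjusted p = 0.0665 and 0.0588). No filter, a replicate block, no variance trend, each transcript on its own and only the libraries compared ended it too.

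Fads1, the delta-5 desaturase, stood at 18.3, 17.6 and 18.8 FPKM in normoxic wild type cells, 17.7, 17.2 and 18.5 FPKM in wild type hypoxia, 19.9, 20.4 and 19.0 FPKM in double knockout normoxia and 19.9, 20.9 and 19.7 FPKM in double knockout hypoxia. It was higher by 0.17 in hypoxia (SE 0.04; adjusted p = 0.0218 by limma), lost without wild type hypoxia library 1 or 2 or double knockout hypoxia library 2 (adjusted p = 0.0581 to 0.0864), and by 0.14 on average over oxygen levels (SE 0.03; adjusted p = 0.00872 by limma), which held in 22 of 22 alternatives. Fads2, the delta-6 desaturase, stood at 10.9, 9.36 and 12.3 FPKM in normoxic wild type cells, 9.68, 7.84 and 9.41 FPKM in wild type hypoxia, 10.5, 11.3 and 11.0 FPKM in double knockout normoxia and 10.8, 10.9 and 11.6 FPKM in double knockout hypoxia. Its genotype value in hypoxia, 0.28, did not pass (adjusted p = 0.0519 by limma), though it was called higher in 6 alternatives, among them quantile normalization, equal library medians, array weights and short transcripts left out.

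**Figure D5:**
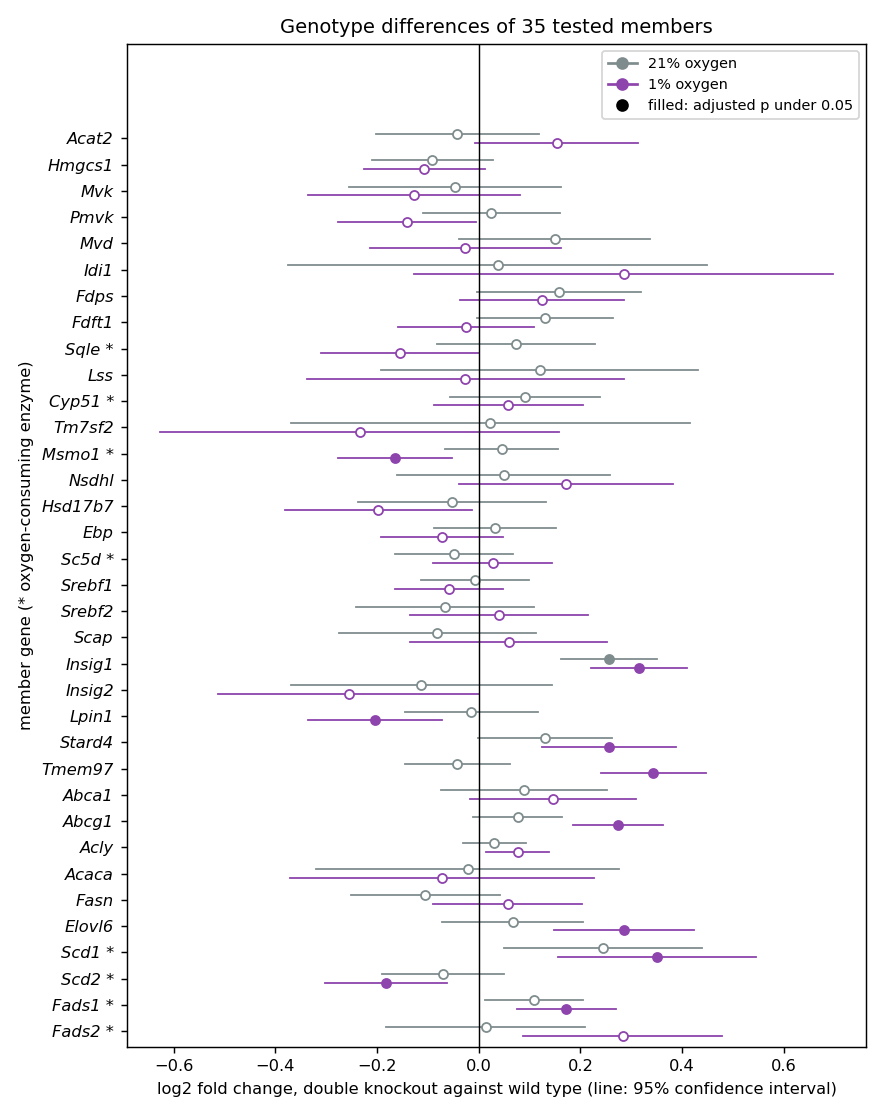
Points are log2 fold changes of double knockout against wild type at 21% oxygen (grey) and 1% oxygen (purple) for 35 tested members, with 95% confidence intervals and filled points where the adjusted p is under 0.05. Insig1 is filled at both oxygen levels, at 0.26 and 0.31, and the other 9 filled members at 1% oxygen.

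Averaged over oxygen levels, 8 of 35 members were called between genotypes, against 19% of all tested genes (8.89% higher and 10.2% lower). They were 7 higher (Insig1, Abcg1, Scd1, Stard4, Tmem97, Fads1 and Elovl6) and Scd2 lower. Of these Insig1 alone was also called in normoxia, so a call on the average need not hold at each oxygen level. The call of Stard4 was lost with transcripts under 1000 bases left out and with each transcript on its own. Scd1 passed the limit of 1 FPKM only through the double knockout groups. With quantile normalization the split was 7 higher and 0 lower. Averaged over genotypes, 11 of 35 members were called for hypoxia, 4 higher and 7 lower, against 45.6% of all tested genes (22.7% higher and 22.9% lower). With quantile normalization the split was 2 higher and 8 lower. Without double knockout hypoxia library 1, 7 members were called. Comparisons that share libraries, as these averages do with the single comparisons, are not independent of each other.

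Fasn, the fatty acid synthase, and Acaca, the acetyl-CoA carboxylase, were not called in any comparison. Fasn stood at 25.7, 29.2 and 23.2 FPKM in normoxic wild type cells, 26.1, 26.8 and 24.4 FPKM in wild type hypoxia, 24.2, 23.8 and 24.2 FPKM in double knockout normoxia and 27.7, 26.4 and 26.3 FPKM in double knockout hypoxia. The hypoxia value in the double knockout, 0.15, did not pass (adjusted p = 0.0932 by limma) although the libraries did not overlap. Acaca had group means of 11.4, 13.1, 11.4 and 12.5 FPKM in the order wild type normoxia, wild type hypoxia, double knockout normoxia and double knockout hypoxia.

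Acly was not called in its sum but was called in its main transcript. The sum was 65.7, 66.4 and 64.7 FPKM in normoxic wild type cells, 63.3, 63.2 and 63.7 FPKM in wild type hypoxia, 66.9, 67.3 and 66.8 FPKM in double knockout normoxia and 68.1, 67.4 and 65.2 FPKM in double knockout hypoxia, with no call. The transcript ENSMUST00000165111 (4162 bases) stood at 0.0577, 2.17 and 0.741 FPKM in normoxic wild type cells, 0.0094, 0.123 and 0.0164 FPKM in wild type hypoxia, 2.26, 6.16 and 5.88 FPKM in double knockout normoxia and 15.1, 9.04 and 7.64 FPKM in double knockout hypoxia. That was at most 3.28% of the gene in a wild type library, 3.38% to 9.16% in double knockout normoxia and 11.7% to 22.1% in double knockout hypoxia, with no overlap between the genotypes. This transcript passed the limit of a mean of 1 FPKM only through the double knockout groups, so its difference between genotypes is given as a description, with no test.

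The main Acly transcript ENSMUST00000007131 (4393 bases) stood at 44.1, 42.7 and 42.3 FPKM in normoxic wild type cells, 42.5, 39.9 and 43.2 FPKM in wild type hypoxia, 44.5, 39.6 and 41.0 FPKM in double knockout normoxia and 28.6, 32.2 and 34.2 FPKM in double knockout hypoxia. It was lower in the double knockout in hypoxia by a log2 fold change of -0.40 (SE 0.06; adjusted p = 0.00477 by limma), in 15 of 15 alternatives. The Acly sum was not called and stayed at 63.2 to 68.1 FPKM. A lower value of this transcript therefore goes with higher values of the others, mostly ENSMUST00000165111. Its p is not independent of the difference given above as a description. By GENCODE M21 the transcripts share 25 exons on chromosome 11 (minus strand). ENSMUST00000165111 begins at 100523598, inside the exon from 100523440 to 100523621 that is the second of the other transcripts, and lacks their first exon, from 100527795 to 100528000. The deposited values of such similar transcripts are estimates from few distinguishing bases, and whether the start of Acly RNA differed was not tested. Acly was singled out after its values were seen. Of the 57 tested transcripts of members, 7 were called in this comparison by limma over 18090 transcripts, 6 of them higher, against 7.1% of all tested transcripts. One of the 6 is ENSMUST00000165111. By hypoxia 1 was called in wild type and 8 in double knockout, against 9.61% and 24.6% of all tested transcripts. Between genotypes in normoxia 1 was called, against 3.22%. Averaged over the other factor 10 were called by hypoxia and 8 by genotype, against 29.6% and 9.31%, and 0 for the difference between the responses by limma, against 0%.

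The other genes of these pathways were a list of 39, of which 38 were in the table and 31 were tested. In wild type hypoxia 3 of 31 rose and 4 fell, against 10.5% higher and 10.4% lower of all tested genes. Mid1ip1, an activator of acetyl-CoA carboxylase, fell from 13.3, 13.6 and 18.8 FPKM to 9.35, 9.40 and 9.53 FPKM (log2 fold change -0.62, adjusted p = 0.00444 by limma). Mylip, a ubiquitin ligase and liver X receptor target like Abcg1, fell from 6.35, 6.33 and 6.61 FPKM to 4.92, 5.00 and 4.73 FPKM (-0.34, adjusted p = 0.00288 by limma). The glucose-responsive factor partner Mlx fell from 11.7, 12.1 and 11.6 FPKM to 9.27, 9.74 and 9.59 FPKM (-0.28, adjusted p = 0.0141 by limma), a call lost without wild type hypoxia library 1 (adjusted p = 0.0548). These 3 showed no overlap between normoxia and hypoxia. Fads3 rose (0.19, adjusted p = 0.0224 by limma), a call lost in 4 of 6 omissions of a library (adjusted p = 0.0528 to 0.0939): wild type normoxia library 1 or 3 and hypoxia library 1 or 3. Of the 3 tested genes of this list that use oxygen (Fads3, Degs1 and Ch25h), 2 were called higher here, Fads3 and Ch25h (0.36). The Ch25h call was lost in 4 of 6 omissions of a library (adjusted p = 0.0931 to 0.119 by limma).

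In double knockout hypoxia 6 of 31 rose and 4 fell, against 19.6% of all tested genes in each direction. Mlx fell by 0.42 (adjusted p = 0.000473 by limma), from 11.9, 10.2 and 12.8 FPKM to 8.34, 8.68 and 8.10 FPKM. Nr1h3, the liver X receptor alpha, fell by 0.30 (adjusted p = 0.00306 by limma), from 12.7, 13.7 and 14.3 FPKM to 10.6, 11.2 and 10.7 FPKM. Fads3 rose by 0.31 (adjusted p = 0.000571 by limma), from 16.0, 16.0 and 15.2 FPKM to 19.8, 19.2 and 20.0 FPKM, and Me1, the malic enzyme that supplies NADPH, by 0.20 (adjusted p = 0.00352 by limma), from 23.8, 24.8 and 23.7 FPKM to 27.7, 28.4 and 27.6 FPKM. None of these libraries overlapped. In wild type cells Nr1h3 also lay lower in hypoxia, from 16.3, 14.5 and 14.1 FPKM to 12.3, 12.3 and 13.6 FPKM. Me1 also lay higher there, from 24.6, 25.9 and 26.8 FPKM to 30.1, 28.6 and 27.3 FPKM, and neither gene's wild type libraries overlapped. Of the 3 tested genes that use oxygen, 2 rose in double knockout hypoxia, Fads3 and Degs1, the latter not called with quantile normalization. Averaged over genotypes 3 of 3 were called higher, against 22.7% of all tested genes. With quantile normalization the average for Degs1 was 0.01 (adjusted p = 0.9 by limma). The average call of Ch25h was lost in 3 of 12 omissions of a library (adjusted p = 0.0516 to 0.0531 by limma). None of the 31 was called for a difference between the hypoxia responses by limma, and 4 passed an unadjusted p under 0.05.

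Between genotypes in normoxia 1 of 31 was higher and 1 lower, against 3.84% and 4.32% of all tested genes. Ch25h, the oxygen-consuming enzyme that makes 25-hydroxycholesterol, read 8.44, 10.4 and 7.94 FPKM in the wild type libraries of normoxia and 12.8, 12.1 and 10.3 FPKM in those of hypoxia. It stood at 6.17, 5.76 and 7.22 FPKM in double knockout normoxia and 6.44, 7.05 and 7.46 FPKM in double knockout hypoxia, below all 6 wild type libraries in each case. The log2 fold change was -0.42 in normoxia (adjusted p = 0.0291 by limma) and -0.67 in hypoxia (adjusted p = 0.00127 by limma). The call in hypoxia held in 17 of 17 alternatives, while that in normoxia was lost without wild type normoxia library 1 or 2 or double knockout normoxia library 1 or 2 (adjusted p = 0.0527 to 0.112).

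Between genotypes in hypoxia 4 of 31 were higher and 3 lower, against 7.68% and 8.42% of all tested genes. Degs1, the oxygen-consuming ceramide desaturase, stood at 573, 561 and 557 FPKM in wild type hypoxia and was higher, at 621, 649 and 636 FPKM, in double knockout hypoxia (0.17, adjusted p = 0.00531 by limma), and its call held in 17 of 17 alternatives. Mid1ip1 was higher by 0.53 in its sum (adjusted p = 0.0111 by limma), but its value was -0.021 without transcripts under 1000 bases and -0.12 for its main transcript alone. Among the genes under the limit of 1 FPKM, and so not tested, were Scd3, Scd4, Fads6, Acacb, Cyp7b1 and Cyp27a1.

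Set against the promoter letters shown above, the 3 members that rose in double knockout hypoxia, Tmem97, Insig1 and Sc5d, all had ACGTG in their window. Of the 3 that fell and have a window (Ebp, Insig2 and Msmo1) 0 had it, and of the 21 members with a window that were not called 5 had it. ATTGG stood in all 3 that rose and all 3 that fell. Among all genes with a window 21.8% had ACGTG. Members counted as without ACGTG may hold the other core, GCGTG, which was not searched. Fdps, Fdft1 and Sqle, which also fell, have no window, and the calls of Insig1, Sc5d and Insig2 were lost in some alternatives. Averaged over genotypes, 3 of the 4 with a window that rose had ACGTG, and 0 of the 4 that fell. These counts were looked at after the values were seen and are given as a description. Whether the letters had a part in any response was not tested.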

How the data were processed

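RNA of primary mouse lung endothelial cells was extracted with RNeasy kits and made into libraries with NEBNext kits, per the labels' protocols. The authors deposited 1 table of FPKM per transcript (52655 transcripts). TopHat2 is named per the submitters' processing notes. Its version, the genome build, the annotation and the program behind FPKM were not given in the sources used here. Here FPKM was summed per gene ID, and a gene entered the tests if its 12 libraries averaged 1 FPKM or more (11378 genes). limma 3.58.1 in R 4.3.3 was fitted on log2(FPKM + 1) with 1 mean per group and a variance trend, and p-values were Benjamini-Hochberg adjusted over all tested genes, with a threshold of 0.05. The script was tested on simulated data.

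Depth was estimated from the smallest steps of FPKM in genes with a single transcript, where 89.7% to 91.8% of low values lay within 0.1 of a whole fragment. The exact depth is unknown, and no counting intervals are given. Samples were grouped by the labels. The members and lists were chosen with earlier results of these data known. All members are named. Values in every library are given for the oxygen-consuming enzymes, Insig1, Insig2 and, per comparison and role, up to 4 called members with the smallest adjusted p, or the 2 with the highest mean where none was called. For the other pathway genes up to 4 called genes per comparison are named, and for hypoxia also the called oxygen-consuming ones. Acly transcripts fall outside that rule and were chosen after their values were seen. Some genes of the other pathway list are not reported here. Alternatives were other pseudocounts, no filter, other scalings, array weights, a replicate block, no variance trend, single transcripts, only the libraries compared and each library left out. Leaving transcripts under 1000 bases out of the sums was chosen after seeing the data. Promoter windows and their GRCm38.p6 coordinates came from RefSeq, and gene bounds and transcript lengths from GENCODE M21 (95.2% of transcripts matched).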

Additional observations from a re-analysis of the deposited data

Results flagged for a closer look

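The response of Tmem97 to hypoxia was called different between the genotypes by the test of the difference itself, only just under the threshold. It was 0.14 on the log2 scale in wild type and 0.52 in double knockout cells, and the difference was 0.39 (95% confidence interval 0.24 to 0.53; adjusted p = 0.0492 by limma). The 3 double knockout hypoxia libraries lay above the 3 double knockout normoxia libraries, and the same order held in wild type. Leaving out any 1 library ended the call, with adjusted p between 0.0616 and 0.133. No filter, quantile normalization, a replicate block, no variance trend and each transcript on its own ended it too.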

How the results depend on the processing

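The number of members called by hypoxia in wild type, 1 as reported, was 4 with quantile normalization, array weights or transcripts under 1000 bases left out, 3 with equal library medians and 2 with only the libraries compared. Quantile normalization split its calls into 1 higher and 3 lower, and equal library medians into 2 higher and 1 lower. The range with 1 library left out was 1 to 4. In double knockout hypoxia the count, 9 as reported, was 5 with no filter, 13 with array weights, 11 with short transcripts left out and 5 to 10 with 1 library left out. Between genotypes it was 1 in normoxia in every omission of a library. In hypoxia it was 10 as reported, 6 with each transcript on its own and 4 to 8 with 1 library left out. The difference between the responses, 1 call as reported, gave 0 calls with no filter, quantile normalization, no variance trend, each transcript on its own and the replicate block, and 0 in every omission of a library. The average hypoxia response gave 7 to 12 calls and the average genotype effect 7 to 10 with 1 library left out. The genotype value of Mid1ip1 in hypoxia reversed to -0.12 for its main transcript and -0.021 without short transcripts. Causes were not tested unless the setting tested fewer genes or samples. With the replicate number as a block the counts were 1, 10, 1, 9, 0, 12 and 8, in the order hypoxia in wild type, hypoxia in double knockout, genotype in normoxia, genotype in hypoxia, the difference, average hypoxia and average genotype. Same-numbered libraries correlated by -0.084 to 0.167, and 5 of 12 correlated best with their own number, so the numbers were not taken to pair the samples. The low level of Dhcr7, Scd1, Lss, Hsd17b7 and Tm7sf2 limits what could be detected for them.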
